A study of Homo sapiens with 4 samples.

Results

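The genes for the human leukocyte antigens (HLA) and for the machinery that prepares antigens for them were compared between naive and arsenic trioxide (ATO) resistant NB4 cells. Members were chosen by gene name, as every array gene whose name began with HLA-, together with B2M, TAP1, TAP2, TAPBP, CIITA, NLRC5, PSMB8, PSMB9, PSMB10, RFX5, RFXAP, RFXANK, CTSS, IFI30, ERAP1 and ERAP2. This gave 42 genes with 73 probes, of 30811 gene names with 41000 probes on the array. NB4 is an established human acute promyelocytic leukemia (APL) cell line, and the naive group was 2 independent flasks of it. The resistant group was 2 independent flasks of 1 ATO resistant clone of NB4, written NB4-VM-AsR1 in the labels and NB4-EV-AsR1 in the methods, which had been kept without ATO for 1 week. Both lines were cultured in RPMI with 10% FBS, so neither group was exposed to ATO when RNA was taken. As 1 clone stands for resistance, any difference below is one between this clone and naive NB4.

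Class I molecules are a heavy chain, encoded by HLA-B, HLA-C and other classical genes or by a non-classical gene such as HLA-E, paired with beta-2 microglobulin, and they show peptides from inside the cell to CD8+ T cells. The peptides are cut by the proteasome, carried into the endoplasmic reticulum by the TAP transporter and trimmed there. Class II molecules, the HLA-DR, -DQ and -DP pairs, show peptides from endosomes to CD4+ T cells, with the invariant chain CD74 guarding their groove and HLA-DM loading it. NLRC5 drives transcription of class I genes and CIITA that of class II genes, both acting through the RFX and NF-Y complexes bound at the promoters, and interferon gamma raises both pathways, in part through IRF1.

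Each level below is the log2 processed signal of a probe minus the 75th percentile of its array, so that 0 is the signal of a bright probe and low negative values lie near background. Levels of different probes are not set against each other. Of 41000 probes, 27921 to 28243 were well above background on an array and 457 to 565 were saturated. Probes entered the test when each array of the naive line, or each array of the resistant line, read them well above background, and a probe was called at a Benjamini-Hochberg adjusted p below 0.05 from limma and a change of at least 2-fold. By this rule 5.27% of 28220 tested probes were called, 2.3% as higher and 2.97% as lower in the resistant line. With 2 arrays a line, the smallest p of an exact permutation test is 0.333, and limma borrows the estimate of the spread across probes. The SD of the difference between flasks was 0.713 for the naive and 0.371 for the resistant line. All arrays lay on 1 slide, naive first and resistant last, so that line and position cannot be told apart. The promyelocytic markers of the list were above background in both lines, with 6 of 6 genes on 3 arrays and 5 of 6 on the second naive array, and MPO was saturated. Of the B cell markers, MS4A1, PAX5 and BLK were not above background on any array, nor were CD1C, FCER1A and CLEC4C of the dendritic cell list, CD163 of the monocyte list and KLRD1 of the T and NK cell list. Summed linear levels of the markers were 1.5 to 1.76 for B cells in both lines. They were 3.36 and 3.92 in naive against 6.98 and 8.04 in resistant cells for monocytes and macrophages, 0.576 and 0.197 against 1.60 and 1.63 for dendritic cells, and 3.97 and 4.71 against 1.56 and 1.84 for T and NK cells, where CD3D fell. The part of these shifts in the results below was not tested. Both groups are cultures of NB4, and in such bulk RNA a change in some of the cells and one in all of them cannot be told apart.

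Of the 51 member probes tested, for 36 of the 42 genes, 9 were called by limma, against the 5.27% of all probes. Of 16 class I probes, B2M included, 4 were called lower and 0 higher. Of 14 class II probes, 4 were called higher and 0 lower. Of these 4, 2 (HLA-DMB and HLA-DQB1) were well above background on no naive array used, so they entered the test through the resistant line alone. The HLA-DMA probe at chr6:32916566-32916625 was not well above background on the second naive array, so it also entered through the resistant line alone. Of 21 probes for processing and regulators, 1 was called lower. The remaining 22 member probes were not tested because they did not reach the signal required, and 6 genes had no tested probe at all (HLA-DRA, HLA-DQA1, HLA-DQA2, HLA-DRB4, HLA-DRB6 and HLA-DPB1).

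**Figure D1:**
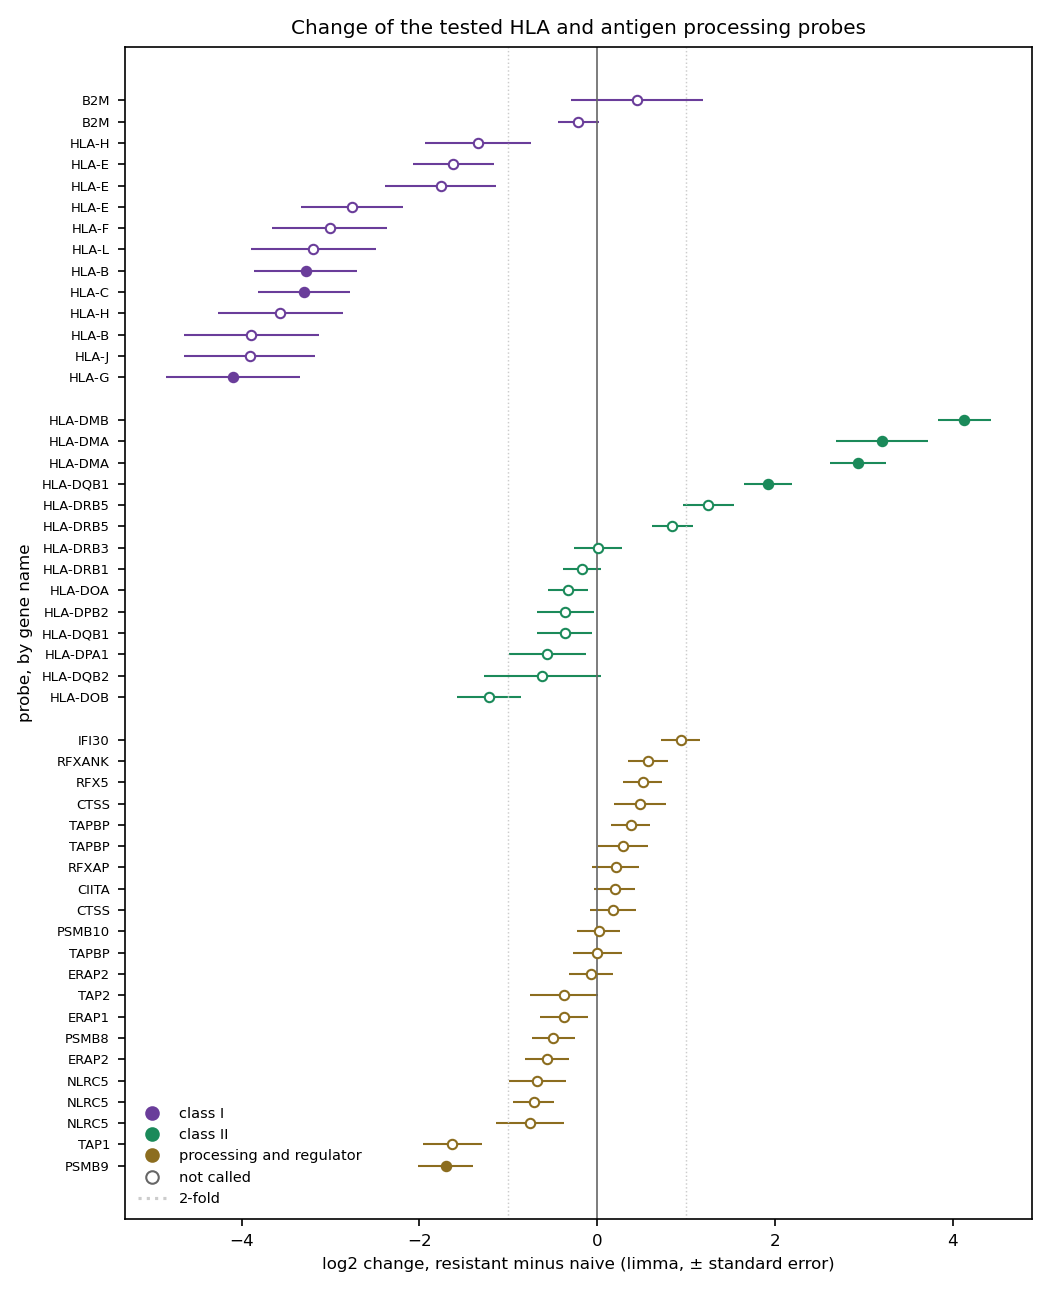
Log2 change (resistant minus naive, bars are standard errors from limma) of tested member probes, in 3 blocks of class I, class II, and processing and regulators, with filled points for called probes. All HLA class I probes plotted lie left of the 2-fold line, the B2M probes lie around 0, and the points beyond 2-fold to the right are class II probes.

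The HLA class I genes were the most uniform group. All 14 of their tested probes, for 9 genes, were at least 2-fold lower in the resistant line, against 6.17% of all probes tested. On all 14 both resistant arrays lay below both naive arrays, which was so for 28.2% of all probes. Their median log2 change was -3.29, against -0.02 over all probes tested, and 13 of 14 had an unadjusted p below 0.05, while 4 passed the adjusted threshold. The classical genes HLA-B and HLA-C gave 3 probes with log2 changes from -3.89 to -3.28, the non-classical HLA-E, HLA-F and HLA-G 5 probes from -4.10 to -1.62, and the pseudogenes HLA-H, HLA-J and HLA-L 4 probes from -3.91 to -1.34.

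HLA genes differ greatly between people, a probe was designed on 1 reference allele, and which alleles NB4 carries under each probe was not examined. HLA-B, a classical heavy chain, read 4.35 and 6.10 in naive and 2.01 and 1.88 in resistant cells at chr6:31322916-31322975 of hg19. The naive flasks were higher and the second of them was saturated, so its level there is a minimum. The log2 change was -3.28 ± 0.58 (SE, adjusted p = 0.0423, called lower). The other HLA-B probe, at chr6:31323100-31323159 and not saturated, read 3.59, 5.97, 0.95 and 0.84, a change of -3.89 ± 0.76 (SE, adjusted p = 0.0567). HLA-C, a further classical gene, read 4.63 and 6.17 in naive and 2.14 and 2.08 in resistant cells at chr6:31236633-31236692. Again the second naive array was saturated and highest, and the lines did not overlap. The log2 change of HLA-C was -3.29 ± 0.52 (SE, adjusted p = 0.0297, called lower).

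Among the non-classical genes HLA-G, known for its expression in trophoblast, read 3.79 and 6.12 in naive against 0.97 and 0.74 in resistant cells at its tested probe. Its log2 change was -4.10 ± 0.75 (SE, adjusted p = 0.0469, called lower). The other HLA-G probe was not above background on any array, between -8.61 and -8.10, so these readings of HLA-G rest on 1 probe of a family with closely similar sequences. HLA-E, a ligand of NK cell receptors that itself presents peptides cut from other class I chains, had 3 probes and the smallest shifts of the protein-coding class I genes. The probe that stands for HLA-E read 3.40 and 4.71 in naive and 2.41 and 2.46 in resistant cells. The lines did not overlap, but the change of -1.62 ± 0.46 (SE) was not called (adjusted p = 0.142), nor were those of the other HLA-E probes, at -1.76 (adjusted p = 0.222) and -2.76 (adjusted p = 0.0665). HLA-F changed by -3.01 ± 0.65 (SE, adjusted p = 0.0725), also without a call.

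The pseudogenes followed the coding genes in direction without a call. HLA-J, with 10 spots, read 3.65 and 5.94 in naive and 0.95 and 0.82 in resistant cells, a log2 change of -3.91 ± 0.74 (SE, adjusted p = 0.0507). HLA-H gave -3.56 (adjusted p = 0.0578) and -1.34 (adjusted p = 0.308) on 2 tested probes, and HLA-L gave -3.19 (adjusted p = 0.0767). Sequence likeness limits how far these names can be told apart. Ungapped matching of the members' probes of different genes found 3 pairs with at least 80% identity over at least 30 bases. The closest within class I was an HLA-B and an HLA-F probe, identical at 49 of 55 overlapping bases. They are printed with the differing bases in capitals, to show how much of the sequence they share.
HLA-B, chr6:31323100-31323159: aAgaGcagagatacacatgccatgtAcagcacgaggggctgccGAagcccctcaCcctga
HLA-F: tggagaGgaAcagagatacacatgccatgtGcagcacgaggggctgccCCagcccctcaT
A second class I pair was an HLA-H and an HLA-E probe, identical at 35 of 41 bases, and the third pair was of class II. The 14 readings are therefore not 14 independent genes, and transcripts of one gene may add to the signal of another.

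B2M, the light chain that every class I molecule needs, did not show the heavy chains' shift. Its probe with 10 spots read 5.23 and 5.50 in naive and 5.18 and 5.12 in resistant cells. The 4 levels lay within a span smaller than the gap between naive flasks of any HLA class I probe. The log2 change was -0.21 ± 0.23 (SE, adjusted p = 0.663). A dim second B2M probe varied more between flasks of one line than between lines (-5.36, -3.16, -4.17 and -3.46, change 0.45, adjusted p = 0.793).

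**Figure D2:**
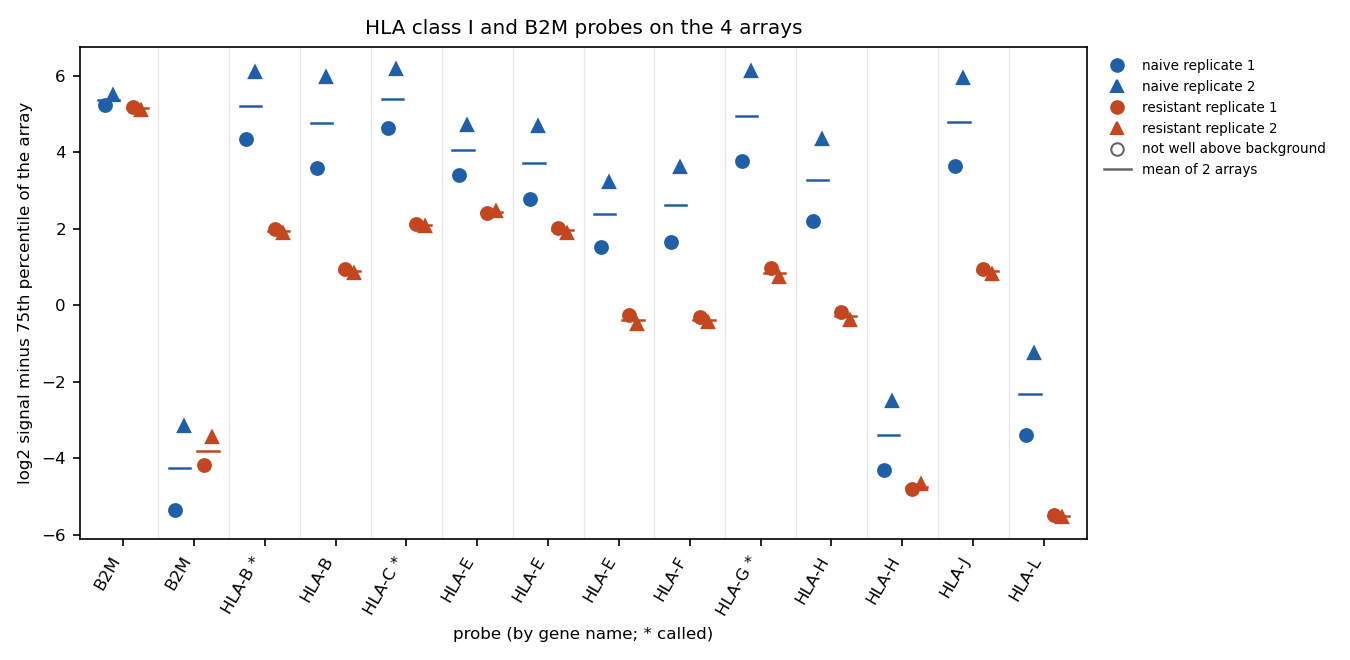
Level (log2 signal minus the 75th percentile of the array) of tested class I and B2M probes on the 2 naive (blue) and 2 resistant (orange) arrays, with circles for replicate 1, triangles for replicate 2, lines for means and stars for called probes. On each HLA probe the naive triangle lies above the naive circle and both lie above the close pair of resistant points, while the bright B2M probe is level.

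The naive flasks themselves differed in class I signal. On all 14 HLA class I probes the second naive flask was higher than the first by at least 2-fold, by at least 1.31 on the log2 scale with a median of 1.97, against 8.64% of all tested probes that were at least 2-fold higher in it. The resistant flasks differed by a median of -0.12 on the same probes. With the second naive flask left out the median class I change was -2.40, and with the first left out it was -4.21, with all 14 probes lower in both cases. The direction thus did not depend on which naive flask was used, while the size did. HLA-E, at -0.96 without the second naive flask, was then under 2-fold. Leaving out either resistant flask left 1 class I probe called, and HLA-B, HLA-C and HLA-G did not pass there.

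Class II gave a different picture, with most chains near background and HLA-DMA higher in resistant cells on both of its probes. Over the 14 tested probes the median change was -0.08, and with signal required on all 4 arrays 1 of 9 was called. HLA-DMA encodes the alpha chain of HLA-DM, which removes the CD74 fragment from class II and edits its peptides. It read -4.93 and -5.69 in naive and -2.35 and -2.41 in resistant cells at chr6:32917418-32917477. Both resistant flasks lay well above both naive flasks and close to each other. The log2 change was 2.93 ± 0.32 (SE, adjusted p = 0.00833, called higher). The second HLA-DMA probe, at chr6:32916566-32916625, read -4.70, -6.21, -2.07 and -2.42, with the second naive array not well above background, and it was called as well (3.21 ± 0.52 SE, adjusted p = 0.0327). The sequences of both probes, from 2 separate stretches of the gene, are given, though the second probe entered the test through the resistant line alone.
HLA-DMA, chr6:32917418-32917477: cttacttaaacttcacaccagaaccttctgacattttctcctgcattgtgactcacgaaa
HLA-DMA, chr6:32916566-32916625: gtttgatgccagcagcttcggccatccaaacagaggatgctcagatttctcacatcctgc

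HLA-DMB encodes the beta chain of HLA-DM. Its tested probe read -8.38 on the second naive array, not well above background, and -4.31 and -4.18 on the resistant arrays. The spot on the first naive array was marked as non-uniform and left out of the fit (it read -2.46, above both resistant arrays), so 1 naive flask stands for the line here. The change of 4.13 ± 0.30 (SE, adjusted p = 0.00565) was called higher. As a bound on the processed signal without that spot it was at least 3.80-fold. The omitted spot had a level of -2.46, above both resistant arrays, and with the deposited log2 table, which keeps it, the change was 1.17 and not called (adjusted p = 0.778). The call of HLA-DMB therefore rests on leaving that spot out, and its other probe was not above background on any array.

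CD74, the invariant chain, is not an HLA gene but was measured beside them. It read -7.69 and -8.33 in naive cells, not well above background, and -4.02 and -4.65 in resistant cells. The resistant flasks stood clear of the naive ones. On the processed signal the gene was at least 3.80-fold higher there (fitted log2 change 3.67 ± 0.35 SE, adjusted p = 0.00553, called higher). CD74 thus entered the test through the resistant line alone. HLA-DQB1, a class II beta chain, read -7.20 and -6.69 in naive cells, again not well above background, and -5.05 and -4.99 in resistant cells on 1 probe. On the processed signal this probe was at least 2.36-fold higher in resistant cells (fitted change 1.92 ± 0.27 SE, adjusted p = 0.0190, called higher). The other HLA-DQB1 probe, above background on all arrays, was not called (-4.63, -4.74, -4.69 and -5.41, change -0.36, adjusted p = 0.579).

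The sizes of these dim rises depended on how background was treated, and the bounds above hold only for the processed signal. With the normexp background correction the log2 change was 1.27 and 1.42 for the HLA-DMA probes, 1.35 for HLA-DMB, 0.69 for CD74 and 0.54 for HLA-DQB1, and no probe of the array was called. With normexp after bright local backgrounds were reset, both HLA-DMA probes were called, at 1.51 and 1.68, and HLA-DMB (0.62), HLA-DQB1 (0.47) and CD74 (0.75) were not. HLA-G was -4.12 and -4.13 under the same settings.

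**Figure D3:**
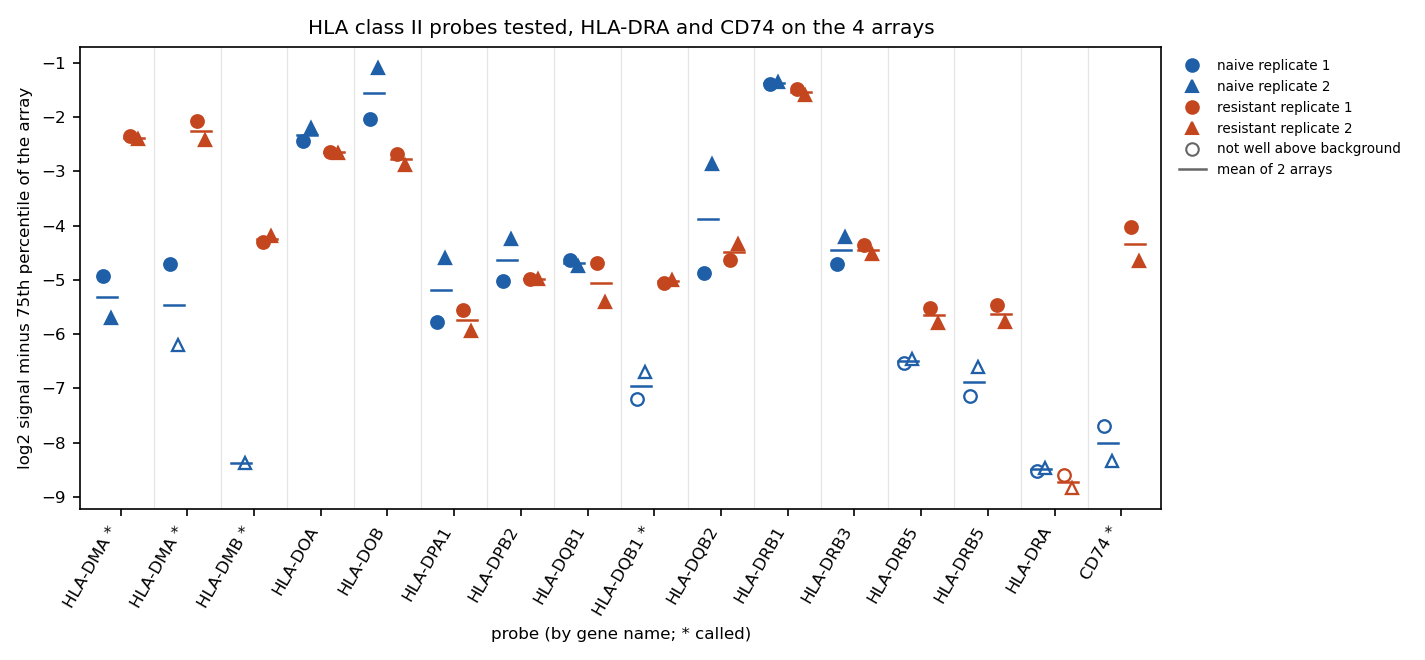
Level (log2 signal minus the 75th percentile of the array) of each tested class II probe, of HLA-DRA and of CD74 on the 4 arrays, with blue for naive, orange for resistant, circles and triangles for replicates 1 and 2, and open symbols where the probe was not well above background. HLA-DMA, HLA-DMB, 1 HLA-DQB1 probe, HLA-DRB5 and CD74 have resistant points above the naive ones plotted, and HLA-DRA is open on all 4 arrays. The HLA-DMB spot of naive replicate 1, left out of the fit, is not plotted. It read -2.46, above both resistant points.

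Of the chains that form the class II molecule at the surface, HLA-DQB1 alone was called, on 1 of its 2 probes. HLA-DRA, the hardly varying alpha chain of HLA-DR and usually the defining class II transcript, read -8.52 and -8.46 in naive and -8.60 and -8.84 in resistant cells and was not well above background on any array. HLA-DQA1, HLA-DQA2 and HLA-DRB6 were likewise not above background on any array. HLA-DRB1, a DR beta chain measured with 10 spots, read -1.39, -1.35, -1.48 and -1.59, a change of -0.17 ± 0.22 (SE, adjusted p = 0.725). HLA-DRB3 changed by 0.01 (adjusted p = 0.990). The probes of HLA-DRB5 were well above background in resistant cells only, with bounds of at least 1.52-fold and 1.55-fold and no call (adjusted p = 0.132 and 0.0867). The DR beta genes are near copies of each other, and an HLA-DRB5 probe and the HLA-DRB4 probe were identical at 49 of 54 bases, so these names are uncertain. HLA-DPA1, HLA-DPB2 and HLA-DQB2 changed by -0.56, -0.36 and -0.62 and were not called. HLA-DO, the pair that restrains HLA-DM, was not called. HLA-DOA changed by -0.33 (adjusted p = 0.487) and HLA-DOB, at -2.02 and -1.09 in naive and -2.68 and -2.88 in resistant cells, by -1.22 (adjusted p = 0.161).

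Among the class I processing genes PSMB9 fell, and its neighbour in the HLA region, TAP1, was lower in both resistant flasks without a call. PSMB9 is an interferon-inducible catalytic subunit of the immunoproteasome. It read 0.47 and 1.18 in naive and -0.85 and -0.91 in resistant cells. The lines were apart and the resistant flasks nearly equal, and the log2 change of -1.70 ± 0.31 (SE, adjusted p = 0.0448) was called lower. The call did not hold without either resistant flask (adjusted p = 0.232 and 0.268). TAP1, a subunit of the peptide transporter, read 2.18 and 3.0 in naive and 1.03 and 0.91 in resistant cells. Its change of -1.63 ± 0.33 (SE) was of similar size but was not called (adjusted p = 0.0639). The other parts of the class I route stayed within 2-fold. PSMB8 and PSMB10, the other immunoproteasome subunits, changed by -0.49 (adjusted p = 0.360) and 0.02 (adjusted p = 0.980). TAP2, the partner of TAP1, changed by -0.37, the 3 tested probes of the loading factor TAPBP by 0.00 to 0.38, and the trimming peptidases ERAP1 by -0.37 and ERAP2 by -0.07 and -0.56, without a call.

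Of the class II processing genes, IFI30, a lysosomal thiol reductase, read -3.52 and -3.43 in naive and -2.54 and -2.54 in resistant cells. The resistant flasks were higher and the flasks of each line close, but the change of 0.94 ± 0.22 (SE) was under 2-fold and not called (adjusted p = 0.0878). Cathepsin S (CTSS), which trims CD74, changed by 0.48 and 0.18 on its probes, also without a call.

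The regulators did not pass the test. NLRC5, the class I transactivator, read 0.27 and 0.07 in naive and -0.45 and -0.63 in resistant cells at the probe that stands for it. The resistant flasks were lower on all 3 NLRC5 probes, with changes of -0.71, -0.67 and -0.75, and the adjusted p was 0.188, 0.336 and 0.362. CIITA, the class II transactivator, had 1 probe above background, at -4.47, -4.24, -4.18 and -4.14 (change 0.20, adjusted p = 0.688), and its other 2 probes were not above background on any array. The RFX subunits RFX5, RFXANK and RFXAP changed by 0.51, 0.57 and 0.21 without a call.

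**Figure D4:**
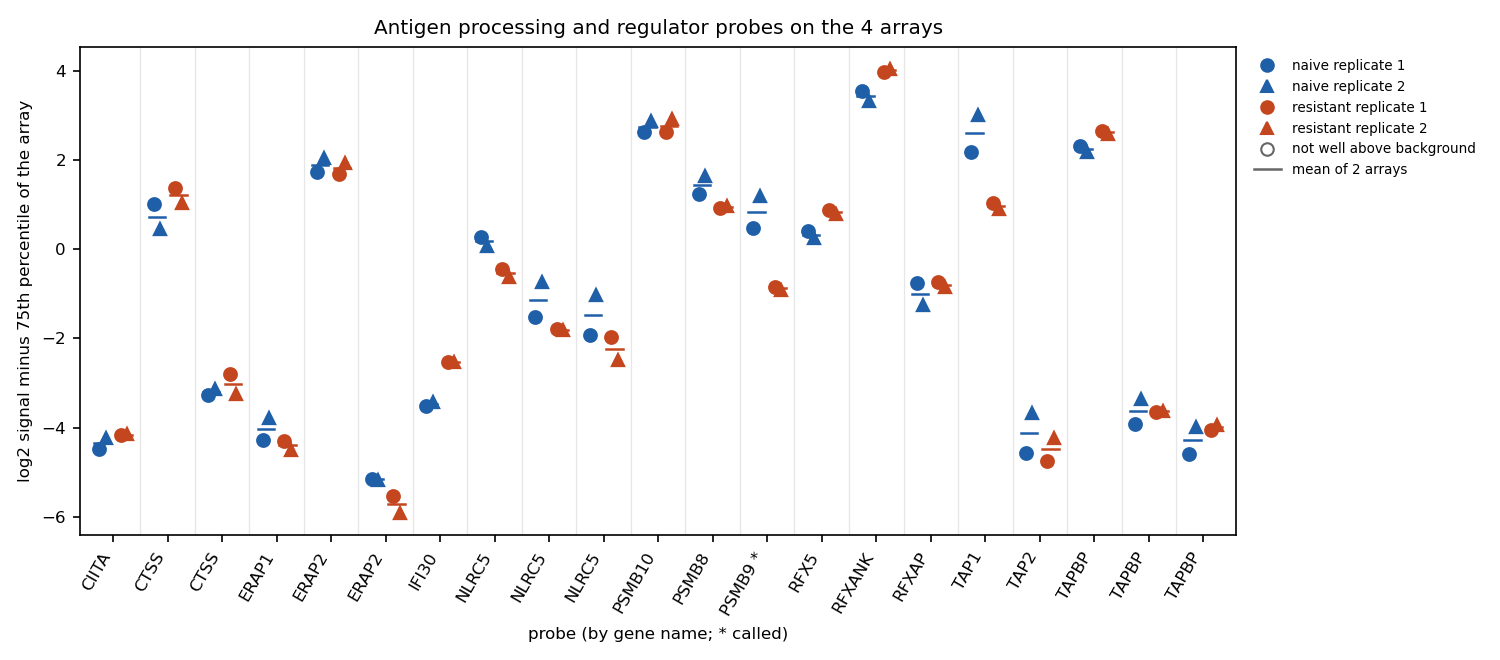
Level (log2 signal minus the 75th percentile of the array) of each tested processing and regulator probe on the 4 arrays, with blue for naive, orange for resistant, circles and triangles for replicates 1 and 2, lines for means and a star for the called probe. PSMB9 and TAP1 have the widest gap between lines, and most other probes have means within 2-fold of each other.

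Further genes of the same routes were read from a list of 61 genes. The median change of their 86 tested probes was 0.00. Of these, 3 were called, 1 higher and 2 lower, against 5.27% of all tested probes. They include CD74, which entered the test through the resistant line alone. Another was CTSF, the lysosomal protease cathepsin F that can process CD74, which entered through the naive line alone. CTSF read -1.19 and -1.11 in naive and -6.17 and -7.67 in resistant cells, a change of -5.77 ± 0.51 (SE, adjusted p = 0.00440, called lower). The second resistant array was not well above background there, and the size depended on the background correction, with -1.90 (not called) under normexp and -2.73 (called) under normexp with bright local backgrounds reset. IRF1, a transcription factor that interferon gamma induces, read -0.37 and -0.38 against -1.35 and -1.25, a change of -0.93 ± 0.22 (SE, adjusted p = 0.0913), and IRF8, a myeloid and B cell factor, changed by -0.68 (adjusted p = 0.334). The receptor chains IFNGR1 and IFNGR2 changed by 0.60 and 0.18 and the NF-Y probes by -0.60 to 0.48, without a call.

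The constitutive proteasome genes PSMB5, PSMB6 and PSMB7 and the activator subunits, with 10 probes in all, had 0 calls from limma and 0 with an unadjusted p below 0.05, with changes from -0.57 to 0.13. Likewise 0 of 9 probes of the class I folding factors such as calreticulin (CALR) and tapasin-related TAPBPL were called, and 0 of 14 of the peptidases, and in both lists 0 reached that unadjusted level. In these lists 1 folding probe (CALR) and 2 activator probes (of PSME1 and PSME2) were saturated on at least 1 array, where a change could be missed. Of the 13 tested probes of class I-like genes (CD1D, MR1, MICA and others) 0 were called and 4 had an unadjusted p below 0.05. Their median change was 0.41, against -3.29 for the HLA class I probes. Of 7 co-stimulation probes 0 were called and 1 had an unadjusted p below 0.05, that of 1 CD86 probe, at least 3.95-fold higher in resistant cells (adjusted p = 0.0720). The other CD86 probe, well above background on all 4 arrays, read -2.76 and -0.08 in naive and -0.97 and -0.06 in resistant cells (change 0.90, adjusted p = 0.636), so the lines overlapped there.

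Most members lie in 1 stretch of chromosome 6, and the probes of other genes there were compared. Between positions 29693013 and 33273030 of chromosome 6 (hg19) there were 170 tested probes of other genes, with a median change of 0.02. Of these, 15 were called by limma, 4 higher and 11 lower. Over all tested probes 5.27% were called, 2.3% higher and 2.97% lower. On chromosome 6 outside the stretch, 60 of 1186 tested probes were called. The 12 class I HLA probes placed in the stretch all had changes below 0. The called neighbours included the heat shock gene HSPA1A (-10.53), the cytokine genes TNF (-3.22 and -3.26) and LTB (-2.61), the NK receptor gene NCR3 (-3.21 and -2.30) and HCP5 (-1.43) among those lower, and the complement gene C2 (4.04 and 2.17) among those higher, named after their values were seen. Other probes of some of these genes were not called. They were 2 of HSPA1A (-2.55 and -2.39, adjusted p = 0.0805 and 0.0844), 3 of HCP5 (-0.35 to -0.37) and 1 of C2 (0.69). Further probes without a gene symbol lay among the class I genes with changes down to -6.09, some of them called, and whether they read class I sequences was not tested.

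**Figure D5:**
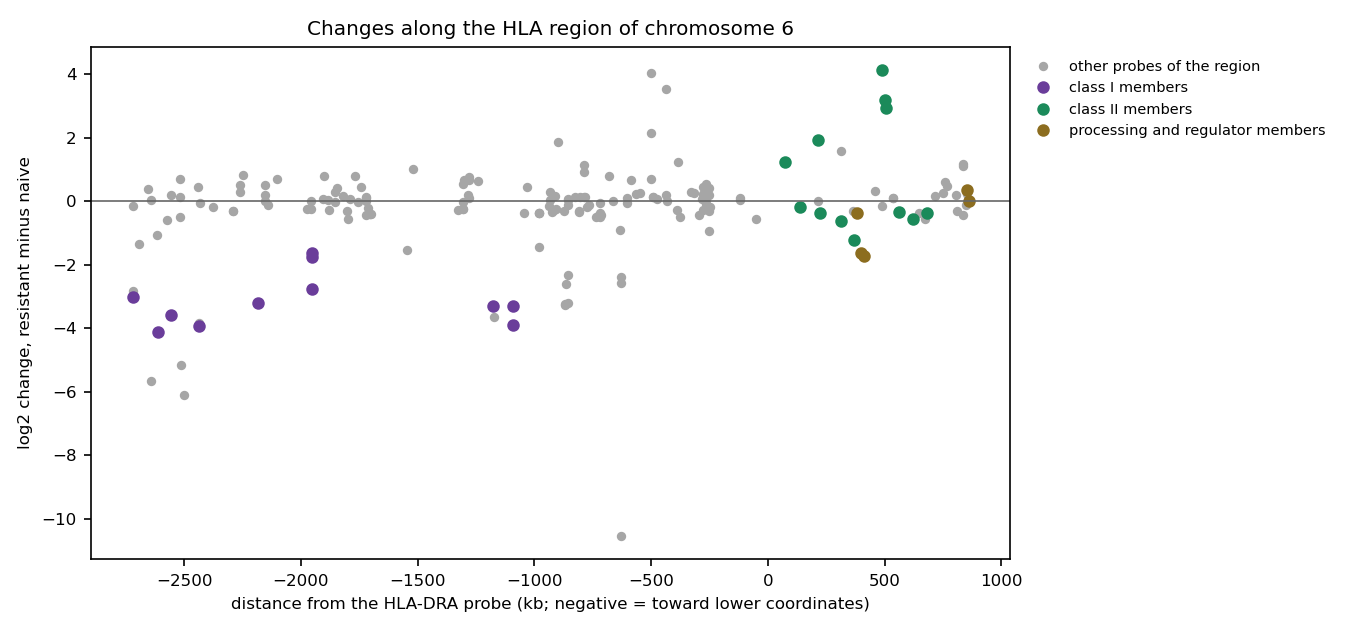
Log2 change (resistant minus naive) of each tested probe in the HLA region of chromosome 6 against its distance in kb from the HLA-DRA probe, with grey for probes of other genes and colours for the members. The class I points lie below 0 across the left part, where several grey points are also far below 0, and the HLA-DM and HLA-DQB1 points lie above 0 on the right.

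Promoters were set side by side because CIITA, NLRC5 and NF-Y act through shared boxes. RefSeq windows of GRCh38.p14, from 250 bases before to 50 after the start of the gene, were matched by symbol for 29 of the 42 members. They were searched on both strands for the Y box (ATTGG, which NF-Y binds), the X1 box (CC, any base, AG, any pair of bases, AC, any base, G, which RFX binds), the GAS of interferon gamma responses (TTCNNNGAA) and the ISRE (GAAA, any pair of bases, GAAA). In all 35116 windows the shares were 34.6% for the Y box, 5.55% for X1, 7.66% for GAS and 3.57% for ISRE. A member with several windows counted once if any of them held the motif, so it had more chances than a single window. The Y box was found in 4 of 4 HLA class I genes, 11 of 12 class II genes and 6 of the 13 others. X1 was found in 5 of 12 class II genes, in 1 of 4 class I genes and in 2 of the 13 others. The 5 were HLA-DMA, HLA-DMB and HLA-DQB1, the called ones, and HLA-DOA and HLA-DPA1, which were not called. The HLA-DMB call rests on leaving out 1 naive spot, and HLA-DQB1 was called on 1 of its 2 probes. Both calls are of probes that entered through the resistant line alone, and whether X1 relates to a rise was not tested. The ISRE was found in 9 of the 13 genes of B2M, processing and regulation and in 1 of 4 class I genes, HLA-F. The GAS was found in 0 of 4 class I genes and in TAP1 and PSMB8 of the processing genes and 2 of 12 class II genes. B2M (log2 change -0.21), PSMB10 (0.02), TAP1 (-1.63) and HLA-F (-3.01) held an ISRE and were not called. PSMB9 (-1.70), which was called, held neither an ISRE nor a GAS in its window. Without a call, TAP1 changed by a similar size to PSMB9 and HLA-F by more. Sequence outside the windows was not searched, and whether either motif relates to a change was not tested. The 130 bases before the start are printed for called genes of both classes, 5′ to 3′ on the gene's strand, with Y and X1 boxes in capitals, where CCAAT is the Y box on the other strand.
HLA-B, chr6:31357180-31357309, minus strand: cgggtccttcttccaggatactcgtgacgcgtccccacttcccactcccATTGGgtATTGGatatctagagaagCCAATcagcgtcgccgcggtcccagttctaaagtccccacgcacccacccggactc
HLA-C, chr6:31272093-31272222, minus strand: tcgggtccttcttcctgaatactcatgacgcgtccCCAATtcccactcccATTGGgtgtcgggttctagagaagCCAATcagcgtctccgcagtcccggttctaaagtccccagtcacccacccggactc
HLA-DMA, chr6:32953098-32953227, minus strand: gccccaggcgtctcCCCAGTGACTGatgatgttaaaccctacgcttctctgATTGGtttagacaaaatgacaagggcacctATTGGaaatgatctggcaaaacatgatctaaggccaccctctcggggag
HLA-DMB, chr6:32941029-32941158, minus strand: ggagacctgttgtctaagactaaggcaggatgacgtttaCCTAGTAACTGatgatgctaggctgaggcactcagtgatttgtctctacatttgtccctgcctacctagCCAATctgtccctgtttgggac
HLA-DQB1, chr6:32666658-32666787, minus strand: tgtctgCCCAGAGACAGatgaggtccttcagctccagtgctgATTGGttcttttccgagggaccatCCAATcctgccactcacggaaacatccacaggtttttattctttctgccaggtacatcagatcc
CD74, chr5:150412911-150413040, minus strand: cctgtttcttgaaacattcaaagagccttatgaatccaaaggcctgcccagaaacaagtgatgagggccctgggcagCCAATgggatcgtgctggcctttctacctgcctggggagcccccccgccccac
The printed windows of HLA-B and HLA-C hold Y boxes and no X1 match, those of HLA-DMA, HLA-DMB and HLA-DQB1 hold an X1 match 116, 91 and 124 bases before the start with a Y box nearer to it, and that of CD74 holds a Y box 53 bases before the start. A match is a description of letters only, and the binding of any factor was not measured. The X1 pattern was 1 fixed string of letters, matched in 5 of 12 class II genes. A window without a match, such as those of HLA-B, HLA-C and CD74, may hold a variant of the box, which was not searched for.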

How the data were processed

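RNA of 2 naive and 2 ATO resistant flasks was labelled with Cy3 and hybridized to 1-colour Agilent whole human genome arrays. Feature Extraction 10.5.1.1 read the images for the authors, who deposited its processed signal, an intensity on a linear scale corrected for background, with the mean spot intensity and median background. A further table deposited by the authors, from GeneSpring GX, holds log2 values after a 75th percentile shift. Probe positions are those of hg19, the build in the file header.

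In R 4.3.3, log2 intensities were taken, control spots and outlier spots were left out (20 spots of members over the 4 arrays), spots of a probe were averaged and the 75th percentile was subtracted. The result correlated with the deposited table at r of at least 0.9998 across probes. The resistant line was set against the naive line in limma 3.58.1 (lmFit, eBayes), with p-values adjusted by Benjamini-Hochberg over 28220 probes, after tests on simulated data. The methods' t-test was an alternative. Arrays have no read depth, and their number limits the precision. Where neither array of a line was well above background, the fold is a lower bound for the processed signal. It was taken against the higher of the lowest signal well above background and the probe's own. Other background corrections gave smaller folds for some of these probes. A gene stands by its probe with the highest mean. Genes named with values on each array were the called members and a fixed set of 11 genes, and of the other lists CD74, IRF1, IRF8 and called genes. Some results are not reported here, and counts over a set include all of its probes. Promoters came from RefSeq, and probe sequences from the scanner files. Alternatives covered background correction, normalization, filters, thresholds, the replicate block and each flask left out. The members and lists were chosen with earlier results of these data known.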

Additional observations from a re-analysis of the deposited data

How the results depend on the processing

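The HLA class I probes were lower in the resistant line under all 18 alternatives, apart from 1 of 16 probes with no filter on dim probes, and their median change ran from -4.21 to -2.40. The number of calls was not stable. With the normexp background correction limma called 0 probes in every set (930 of all probes and 11 of 16 class I probes had an unadjusted p below 0.05), and 1 HLA-DQB1 probe turned from -0.36 to 0.19. With normexp after bright local backgrounds were reset, 15 member probes were called, with 11 of class I, 2 of class II and 2 of processing and regulators. Quantile normalization gave 3 member probes, with 0 of class I (12 at an unadjusted p below 0.05) and 0 of processing and regulators (6 at that level). Scale normalization gave 17 member probes, 11 of class I, 2 of processing and 6 of the other lists, and it moved the median of all probes from -0.02 to 0.08. A shift to the median gave 16, 10, 2 and 6 in the same order, and an intensity trend in limma 15, 9, 2 and 5. Normexp moved the median of all probes to 0.13. With the requirement of signal on all 4 arrays, 760 probes of the array were called, with 4 members, 1 of class II, 0 of processing and 1 of the other lists. With no filter, which tests more probes, 3 members, 0 of class I and 0 of processing were called (13 and 4 at an unadjusted p below 0.05). Without saturated probes, which drops HLA-B and HLA-C probes, 1 class I probe was called. The methods' t-test called 4 member probes without adjustment, with 0 of class I and 5 of the other lists, and after Benjamini-Hochberg adjustment it called 0 in every set (at an unadjusted p below 0.05 it had 4157 of all probes, 10 of the members and 0 of class I). With no fold threshold the counts were unchanged. The cause of these shifts was not tested.

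With the replicate number as a block, 8 class I probes, 0 of processing and regulators and 5 of the other lists were called. The numbers give only 2 pairs, whose deviations correlated at 0.119, so they were not taken to pair the flasks. Leaving out 1 flask at a time, limma called 727 to 4536 probes of the array, 3 to 25 of the members, 1 to 14 of class I, 2 to 7 of class II, 0 to 4 of processing and regulators and 2 to 12 of the other lists, where the lone flask of a line is assumed to vary like the other line. The highest counts came without a naive flask and the lowest without a resistant flask. Of the values of named genes under alternatives, 301 kept their direction and side of the threshold, 64 fell below the threshold, 21 rose past it and 1 reversed. A block for the slide could not be fitted, since all arrays share it. The HLA-DMB value could not be fitted without naive replicate 2 or with the replicate block, and dim probes such as those of HLA-DMB, HLA-DQB1 and CD74 are limited by their signal over background.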
